A study of Mus musculus with 18 samples.

Results

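The Dlk1-Dio3 locus is an imprinted stretch of mouse chromosome 12, and 6 of its genes are described here, Dlk1, Meg3, Rtl1, Rian, Mirg and Dio3, out of 35006 gene names in the count files. Members were found by gene symbol. The locus was taken up because Mirg was among the largest decreases between Akita and WT retinas, so it was selected on measured values. The level of every member in Akita and WT is therefore given as a description with no p, nothing is read from how many members pass a threshold there, and Akita + NACET vs WT + NACET, which shares no library with it, is the comparison of genotypes that the choice did not use.

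Poly(A) RNA from retinas of male mice was sequenced in 18 libraries. WT mice were C57BL/6J (3 libraries), and Akita mice were C57BL/6-Ins2Akita/J (4 libraries), which carry a mutation in a single copy of the insulin gene Ins2 and become diabetic early in life. WT + NACET (6 libraries) and Akita + NACET (5 libraries) were mice of the same 2 genotypes that received NACET, an ethyl ester of the antioxidant N-acetylcysteine, in drinking water at 0.33 mg/mL, which came to 50 mg/kg/day, starting at 4 weeks of age and ending at 24 weeks. The untreated WT and Akita mice received water without NACET over the same ages, and retinas of all groups were taken at 24 weeks. All groups were male, so nothing can be said of females, and the labels do not say whether each library came from a separate animal, so that p-values measure the spread between these libraries.

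In imprinted loci the copy of a gene that is active depends on the parent it came from. In the Dlk1-Dio3 locus the protein-coding genes Dlk1, Rtl1 and Dio3 are expressed from the paternal copy. The long noncoding RNAs Meg3, Rian and Mirg are expressed from the maternal copy, all in the same direction, and Rian and Mirg are hosts of clusters of small nucleolar RNAs and microRNAs. Meg3 RNA is abundant in neurons and mostly nuclear, and microRNAs of the cluster act in neuronal development and synapses.

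The members lie over 828.3 kb of build mm9. Dlk1 (chr12:110691033-110701546, plus strand) is at one end and Dio3 (chr12:111517278-111519307, plus strand) at the other. Meg3 (chr12:110779211-110809936), Rian (chr12:110842155-110899919) and Mirg (chr12:110973191-110987665) follow each other on the plus strand, and Rtl1 (chr12:110827404-110838540) is on the minus strand between Meg3 and Rian. Together with these, 70 names of the files fall between Dlk1 and Dio3, and 57 of them are microRNA hairpins.

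**Figure D1:**
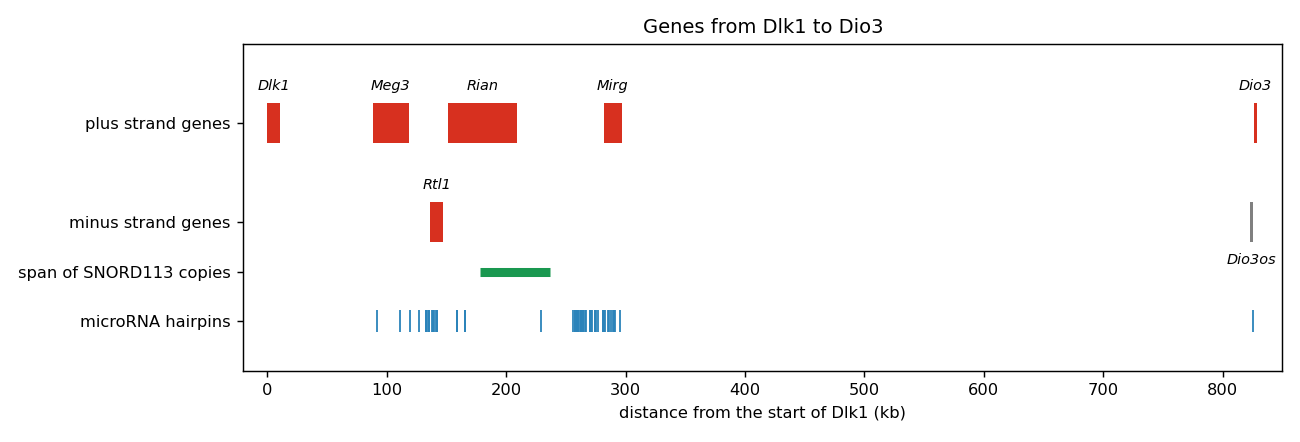
Position of the 6 genes (red), Dio3os (grey), the microRNA hairpins (blue ticks) and the span of the SNORD113 copies (green), in kb from the start of Dlk1. The 3 noncoding hosts and all but one of the hairpins lie in the part nearer to Dlk1, far from Dio3.

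Mirg is shown with the microRNAs inside it, because it is their host and the member that led to the choice of the locus. Of 10 hairpin names inside Mirg, 7 matched RefSeq by symbol, with 13 mature sequences (build GRCm38.p6). They are printed 5′ to 3′, with the seed, bases 2 to 8 that pair with target mRNAs, in capitals.
miR-453: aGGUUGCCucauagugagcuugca
miR-154-5p: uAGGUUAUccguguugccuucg
miR-154-3p: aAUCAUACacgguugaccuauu
miR-377-5p: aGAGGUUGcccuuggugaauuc
miR-377-3p: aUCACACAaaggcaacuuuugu
miR-541-5p: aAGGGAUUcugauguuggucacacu
miR-541-3p: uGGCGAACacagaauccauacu
miR-412-5p: uGGUCGACcagcuggaaaguaau
miR-412-3p: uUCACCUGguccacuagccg
miR-369-5p: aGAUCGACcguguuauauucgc
miR-369-3p: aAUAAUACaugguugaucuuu
miR-410-5p: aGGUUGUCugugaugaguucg
miR-410-3p: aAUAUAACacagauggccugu

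No seed was shared among the 13. Over the locus, 48 of the 57 hairpin names matched, with 89 mature sequences and 84 different seeds, and 5 seeds occurred in a pair of microRNAs. One of these pairs ties Mirg to the hairpins before it, since miR-410-5p has the seed of miR-494-5p. The pair miR-379-3p and miR-411-3p is shown beside it because both come from the first part of the cluster.
miR-494-5p: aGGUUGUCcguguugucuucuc
miR-379-3p: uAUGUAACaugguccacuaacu
miR-411-3p: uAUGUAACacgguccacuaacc

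Poly(A) libraries do not measure mature microRNAs, so the levels below are those of the host transcripts. The hairpins of Mir377 and Mir410 lie within Mirg exons, and those of Mir412 and Mir369 lie in exons in part. All 4 had 0 counts. For Mir377 and Mir410 this was fixed by the counting, since all their bases are shared with Mirg. Of the hairpins in Mirg introns, Mir154 and Mir496 had 21 reads each over the 18 libraries, AC121784.5 had 18, Mir453 had 7, Mir541 had 4 and AC121784.1 had 2.

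Library totals ranged from 11590384 to 18073791 counts in genes. The share of uniquely aligned reads outside annotated exons ranged from 9.55% to 19.8%, and differed between groups: 14.9% to 17.1% in WT, 9.67% to 13.3% in Akita, 14.3% to 19.8% in Akita + NACET and 9.55% to 16.5% in WT + NACET. Levels are given as CPM, the usual unit of reads of a gene relative to all reads counted in genes, scaled between libraries by TMM. Summed CPM of 6 rod marker genes was 127900 to 194700 in Akita, 88560 to 121500 in WT, 82470 to 111800 in Akita + NACET and 110600 to 147500 in WT + NACET. Summed CPM of 5 amacrine cell genes was 195 to 287 in Akita, 318 to 439 in WT, 300.7 to 350.5 in Akita + NACET and 253 to 374 in WT + NACET. In bulk RNA fewer cells of a type and less RNA per cell cannot be told apart.

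Meg3, the most abundant member, was high in WT and in Akita + NACET and low in Akita. Its level was 293, 230 and 206 CPM in the WT libraries, and 71.7, 84.0, 70.6 and 65.6 CPM in the Akita libraries. Every Akita library was below every WT library, and the fitted difference was -1.73 on the log2 scale (SE 0.30), or 3.33-fold lower. How many of all genes had groups without overlap was not counted. For every member, non-overlap is therefore only a description of these libraries. In Akita + NACET the libraries held 203, 242, 143, 187 and 256 CPM, above all Akita libraries and overlapping WT. In WT + NACET the lowest was 90.6 CPM, the median 129 CPM and the highest 240 CPM. WT + NACET reached from just above the Akita libraries into the WT range, with the widest relative spread of the 4 groups (coefficient of variation 41.7%, against 10.7% in Akita).

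Mirg, the host at the far end of the noncoding cluster, had the same order of groups at a level about as low as 1 CPM in Akita. Its level was 4.09, 4.80 and 3.61 CPM in WT, and 1.05, 1.04, 1.32 and 0.912 CPM in Akita. These rest on 57 to 60 reads per WT library and 11 to 21 per Akita library. The groups did not overlap, and the fitted difference was -1.93 (log2, SE 0.33), or 3.8-fold lower. In Akita + NACET the libraries held 2.21, 3.36, 2.49, 3.73 and 4.64 CPM, all above Akita. In WT + NACET the lowest was 1.19 CPM, the median 2.54 CPM and the highest 3.93 CPM.

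Rian, the host of the SNORD113 small nucleolar RNAs, differed from its neighbours on either side. Its level was 32.1, 24.6 and 22.2 CPM in WT, and 15.3, 16.7, 14.8 and 9.86 CPM in Akita. The fitted difference was -0.89 (log2, SE 0.18), or 1.85-fold lower, with no overlap. In Akita + NACET the libraries held 21.4, 17.4, 17, 15.9 and 16.6 CPM, below all WT libraries and overlapping Akita. In WT + NACET the lowest was 18.3 CPM, the median 28.0 CPM and the highest 34.2 CPM. Rian thus had its 2 lowest group means in Akita and Akita + NACET, whereas Meg3 and Mirg had theirs in Akita and WT + NACET.

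The 3 protein-coding genes were low, Dlk1 and Rtl1 at or near the limit of detection. Dlk1, a membrane ligand of the Notch family that holds precursor cells undifferentiated, had 14 reads over all 18 libraries and at most 2 in any. A count of 3 in a library corresponds to 0.168 to 0.261 CPM before the scaling by TMM. The levels given are scaled, so those near this range rest on only a few reads. Dlk1 did not pass the filter on low counts. Rtl1, a gene derived from a retrotransposon that is needed in placenta and muscle, had 102 reads in all. Its level was 0.718, 0.799 and 0.421 CPM in WT and 0.0701, 0.289, 0.314 and 0.0829 CPM in Akita, which is 7 to 10 reads against 1 to 5. The fitted difference of Rtl1 was -1.64 (log2, SE 0.59), on these few reads. Its exons share bases with hairpins on the plus strand, among them Mir127 and Mir136, and counting ignored strand. Reads of a plus strand transcript there would count as Rtl1, so its level cannot be assigned to either strand.

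Dio3, the deiodinase that inactivates thyroid hormone, varied more between libraries of one group than between groups. It held 0.215, 1.28 and 0.301 CPM in WT and 0.701, 0.232, 1.88 and 0 CPM in Akita. In WT + NACET the lowest was 0.284 CPM and the median 0.554 CPM, and replicates 1 and 5 held 3.38 and 3.33 CPM. Dio3os, the antisense neighbour of Dio3, was also highest in those 2 libraries, at 3.31 and 2.67 CPM, and over the 18 libraries the r of Dio3 with Dio3os was 0.773 on log2 CPM. Counting ignored strand, so the strand of these reads is not known. The annotated spans of Dio3os (to 111516278) and Dio3 (from 111517278) share no bases, and position keeps their reads apart. Tyr, a gene of the retinal pigment epithelium, held 4.79 CPM in replicate 1 and 13.6 CPM in replicate 5 of WT + NACET, while Rpe65 held 49.7 and 20.7 CPM there, the latter the lowest of that group. The summed CPM of 4 pigment epithelium genes was 29.4 to 103 in Akita, 29.7 to 288 in Akita + NACET, 62.6 to 244 in WT and 141 to 520 in WT + NACET. The part of that tissue in the level of Dio3 was not tested.

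**Figure D2:**
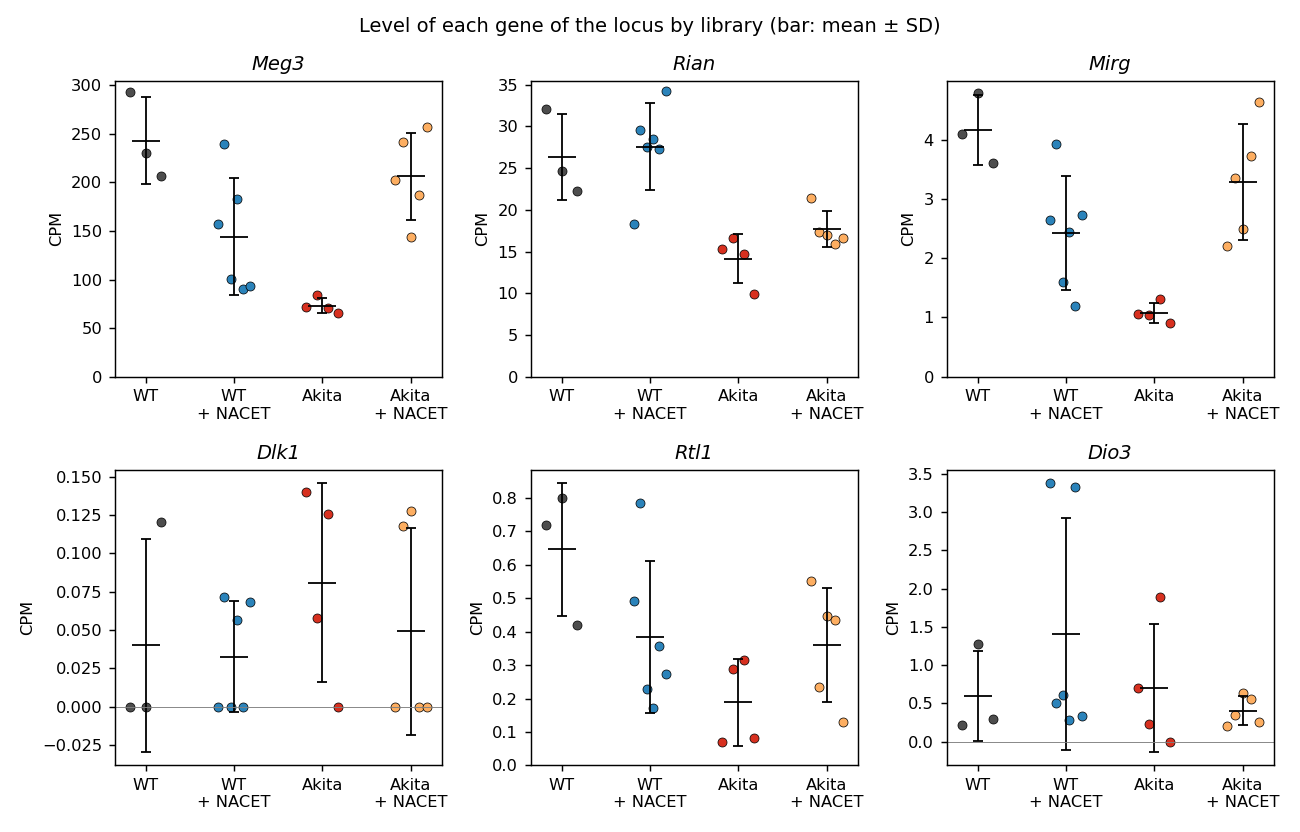
CPM of each member in every library (points) of the 4 groups, with the mean ± SD (bars, n = 3, 6, 4 and 5); each panel has its own scale. Meg3 and Mirg are lowest in Akita and spread widely in WT + NACET, Rian is low in both Akita groups, and Dlk1 stays below 0.15 CPM.

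Per length of exon, Meg3 was the highest member in every group. In WT it stood at 14.6 ± 2.69 CPM per kb (SD, n = 3), Rian at 3.27 ± 0.64 and Mirg at 1.38 ± 0.20, in that order and without overlap of mean ± SD. Dio3 (0.295 ± 0.291) and Rtl1 (0.112 ± 0.034) followed and did not differ beyond their spread, and Dlk1 was at 0.00710 ± 0.0123 CPM per kb. In Akita the same order held for Meg3 (4.37 ± 0.469), Rian (1.76 ± 0.369) and Mirg (0.359 ± 0.0567), but Mirg no longer stood clear of Dio3 (0.347 ± 0.413).

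A gene counts as changed below where the edgeR quasi-likelihood test gave a Benjamini-Hochberg adjusted p of at most 0.05 over the 16183 genes tested, among them 5 of the 6 members. In Akita + NACET vs WT + NACET 1 member, Rian, was changed, against 13.3% of all genes. Rian was lower in Akita + NACET by 0.64 on the log2 scale (SE 0.15, edgeR adjusted p = 0.00914), a 1.56-fold lower level. The libraries overlapped in part: replicate 1 of Akita + NACET (21.4 CPM) stood above the lowest WT + NACET library (18.3 CPM). Meg3 and Mirg were not changed in this comparison, with log2 differences of 0.52 (SE 0.23, edgeR adjusted p = 0.146) and 0.44 (SE 0.25, edgeR adjusted p = 0.225). Rtl1 stood at -0.09 (SE 0.45) and Dio3 at -1.79 (SE 0.83), neither past the threshold by edgeR. DESeq2 fitted to these 2 groups alone did call Dio3 (log2 -1.80, DESeq2 adjusted p = 0.0424). WT + NACET replicates 1 and 5 held 55 and 56 Dio3 reads, and the rest of that group 5 to 8. Dio3os was lower by 1.69 (SE 0.47, edgeR adjusted p = 0.0240). Some marker genes of other cells were called in the same comparison. Lower were 3 of 5 cone genes, 3 of 5 microglia genes and 1 of 6 rod genes. Also lower were 1 of 2 astrocyte genes (Gfap), 1 of 6 Mueller glia genes (Glul), 1 of 3 pericyte genes (Rgs5) and 1 of 4 pigment epithelium genes (Tyr). Higher were 2 of 4 red cell genes, 1 of 6 bipolar cell genes (Prkca) and 1 of 5 horizontal cell genes (Onecut1). No amacrine cell, ganglion cell, endothelium or lens gene was called. Summed CPM of the cone genes was 1866 to 2395 in Akita + NACET and 2510 to 3801 in WT + NACET, and that of the microglia genes 16.6 to 27.8 and 30.8 to 41.7. Their part in the level of Rian was not tested.

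The other comparisons share libraries with Akita vs WT and are not independent of the choice of the locus. Akita vs WT is the contrast the choice rests on, so that the 3 members past the threshold there (Meg3, Rian and Mirg, where 7.64% of all genes passed) were favoured by the choice and are no result. Without WT replicate 1, or without WT replicate 2, 0 members and 0 genes of the whole table passed there. In Akita + NACET vs Akita, 2 of the 5 tested members were higher, beside 9.65% of all genes changed in either direction. Meg3 stood 2.82-fold higher (log2 1.5, SE 0.27) and Mirg 3.01-fold higher (log2 1.59, SE 0.30), with all 5 treated libraries above all 4 untreated ones. The low Akita libraries led to the choice of the locus, so a rise from them was favoured. These values are a description, and nothing is read from the 2 members past the threshold. In this comparison 3 of 6 rod genes and 2 of 5 cone genes were lower. Higher were 1 of 4 endothelium genes (Cldn5), 1 of 3 pericyte genes (Pdgfrb) and 1 of 4 red cell genes (Hbb-b2). Of 5 amacrine cell genes 0 were called, and 3 had an edgeR unadjusted p under 0.05, as had 4700 of all 16183 genes. Summed CPM of the amacrine cell genes was 300.7 to 350.5 in Akita + NACET and 195.4 to 287.2 in Akita. The part of any of these cell types was not read from the markers. The part of these cells in the levels of Meg3 and Mirg was not tested. Rian stood at 0.32 (SE 0.17, edgeR adjusted p = 0.210), Rtl1 at 0.82 (SE 0.56) and Dio3 at -0.82 (SE 0.95). Without Akita replicate 4, Meg3 stood at 1.45 and Mirg at 1.52, and neither passed the threshold.

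NACET in WT mice went with no call among the members, where 1.48% of all genes were changed. By edgeR 2 of the 5, Meg3 and Mirg, had an unadjusted p under 0.05, as had 3162 of all 16183 genes. DESeq2 also called 0 members. Meg3 was at -0.75 (SE 0.27, edgeR adjusted p = 0.145) and Mirg at -0.78 (SE 0.28, edgeR adjusted p = 0.141), while Rian was at 0.07 (SE 0.17). Without WT + NACET replicate 2, Meg3 reached an edgeR adjusted p of 0.0395 (log2 -0.96). The WT libraries also led to the choice of the locus. Lower levels against WT were therefore favoured, here and in Akita + NACET vs WT, and these values are a description. In Akita + NACET vs WT no member was called, and 1 of all genes was (0.00618%). By edgeR 1 of the 5, Rian, had an unadjusted p under 0.05, as had 750 of all 16183 genes. DESeq2 called 0 members. Meg3 stood at -0.24 (SE 0.28), Mirg at -0.34 (SE 0.29) and Rian at -0.57 (SE 0.17, edgeR adjusted p = 0.920), with every Rian value of Akita + NACET below every WT value.

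The effect of NACET in Akita minus that in WT, the interaction, was 2.25 for Meg3 (SE 0.38), 2.37 for Mirg (SE 0.41), 1.56 for Rtl1 (SE 0.74), 0.25 for Rian (SE 0.24) and -2.12 for Dio3 (SE 1.36), all on the log2 scale. The interaction contains the difference of Akita and WT that led to the locus, so these values are a description, and nothing is read from the 2 of 5 (Meg3 and Mirg) past the threshold, where 20.3% of all genes were.

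**Figure D3:**
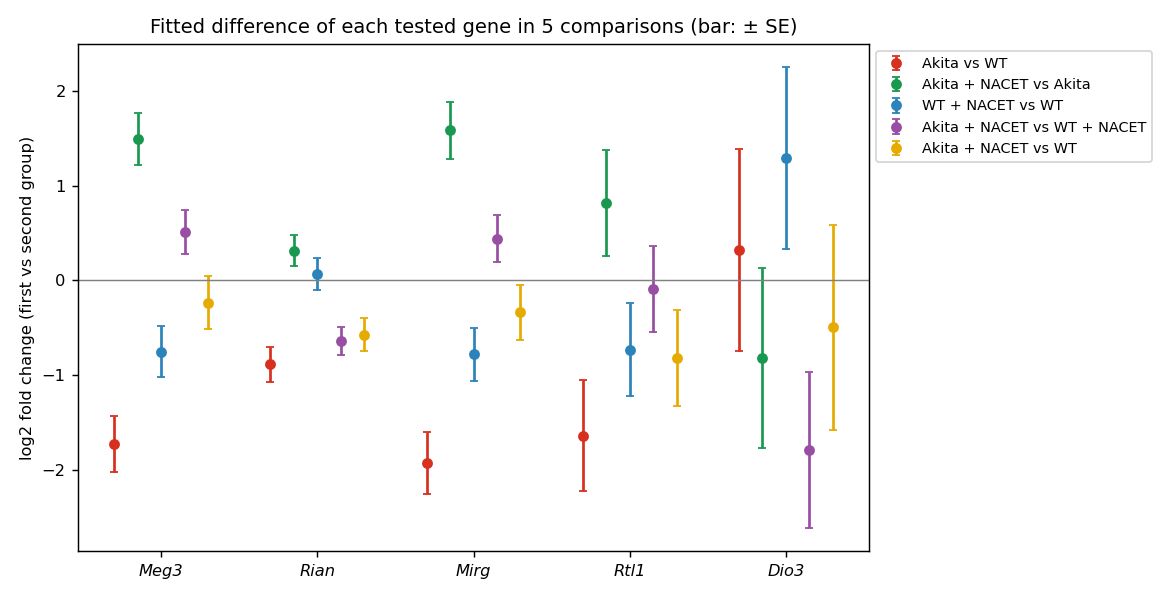
Fitted log2 difference (points) ± SE (bars) of the 5 tested members in 5 comparisons, with edgeR. Meg3 and Mirg go together, lower in Akita vs WT and higher in Akita + NACET vs Akita, while Rian lies below 0 in both comparisons of genotypes and in Akita + NACET vs WT.

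Within a library, the counts of one host can be set against another, which removes the scaling between libraries. Mirg had 1.40, 2.09 and 1.75 reads per 100 Meg3 reads in WT, and 1.47, 1.24, 1.87 and 1.39 in Akita. In Akita + NACET the same ratio was 1.09 to 2, and in WT + NACET 1.31 to 2.91. All 4 groups overlapped, and no difference in Mirg against Meg3 passed in the 3 comparisons tested (log2 differences -0.10, 0.06 and -0.03, adjusted p from 0.884 to 0.929 by two-sided exact permutation over 9 tests).

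Rian against Meg3 gave another picture. There were 11, 10.7 and 10.8 Rian reads per 100 Meg3 reads in WT, and 21.3, 19.9, 20.9 and 15.0 in Akita. In Akita + NACET the ratio was 10.6, 7.20, 11.9, 8.53 and 6.49, below all Akita libraries. In WT + NACET the lowest was 11.6, the median 21.4 and the highest 36.6, a range that replicates 3, 5 and 6 (27.3, 30.2 and 36.6) held apart from the other 3. These replicates also had the 3 lowest shares of reads outside exons of their group (10.4%, 11.3% and 9.55%), and the shares of Akita and Akita + NACET did not overlap. The log2 ratio was lower in Akita + NACET than in WT + NACET by 1.21 (two-sided exact permutation p = 0.0130, adjusted 0.0438 over the 9 tests), and lower than in Akita by 1.13 (exact permutation p = 0.00794, which is the smallest this design allows, adjusted 0.0438). In WT + NACET vs WT it stood at 0.90 (exact permutation p = 0.0476, adjusted 0.0857).

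Mirg against Rian was the mirror image. It stood at 12.8, 19.5 and 16.3 Mirg reads per 100 Rian reads in WT, 6.88, 6.25, 8.94 and 9.24 in Akita and 10.3, 19.3, 14.6, 23.4 and 27.8 in Akita + NACET. WT + NACET ran from 4.35 to 14.4 with a median of 8.26. The log2 ratio was higher in Akita + NACET than in WT + NACET by 1.11 (exact permutation p = 0.0195, adjusted 0.0438) and than in Akita by 1.19 (exact permutation p = 0.0159, adjusted 0.0438). The differences from Akita, here and for Rian against Meg3, use the Akita libraries that led to the choice of the locus. Those in WT + NACET vs WT use the WT libraries, which led to it as well. The p-values of these comparisons are therefore no independent test. The adjustment over the 9 tests pooled them with Akita + NACET vs WT + NACET. The adjusted exact permutation p of 0.0438 there depends on the pooled tests, and nothing is read from its passing the threshold. The calls on both Rian ratios were lost when some libraries were left out: in Akita + NACET vs Akita this was so for each of the 9 libraries, and in Akita + NACET vs WT + NACET for 5 (Rian against Meg3) or 9 (Mirg against Rian) of the 11, with differences between 0.92 and 1.39 in size throughout. For 5 of the 9, the Akita + NACET libraries, the loss was fixed by the design, since 4 against 4 libraries cannot go below p = 0.0286 by exact permutation, which did not pass after adjustment.

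**Figure D4:**
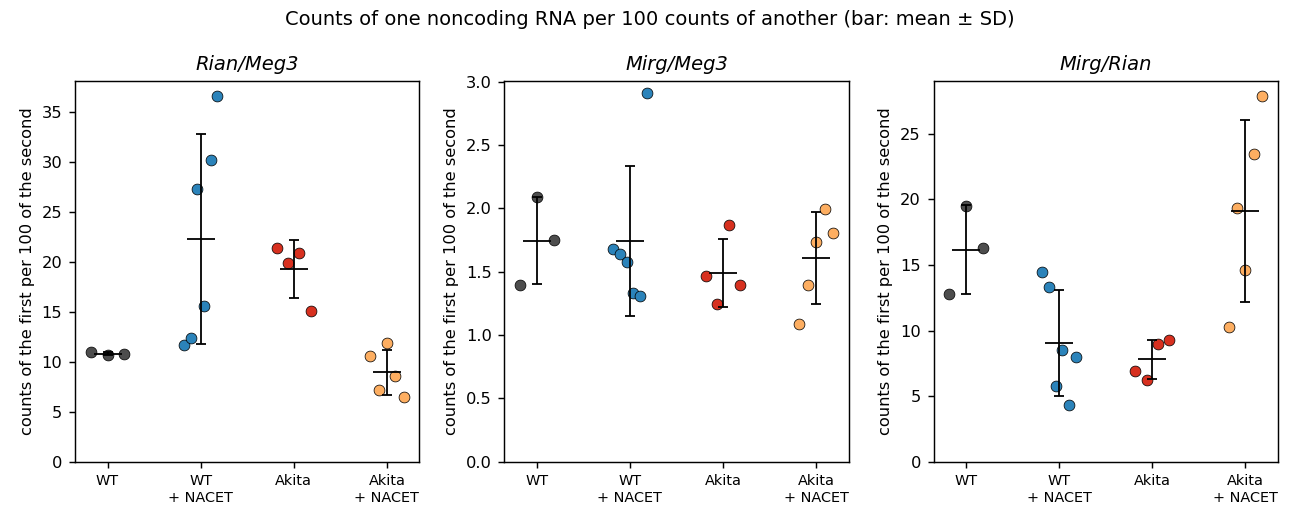
Reads of one noncoding host per 100 reads of another in each library (points), with the mean ± SD (bars, n = 3, 6, 4 and 5). Mirg per Meg3 overlaps in all groups, while Rian per Meg3 is near 11 in WT, 15.0 to 21.3 in Akita, 6.49 to 11.9 in Akita + NACET and 11.6 to 36.6 in WT + NACET.

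The small nucleolar RNA name SNORD113, of which 19 of 22 annotated copies lie in and after Rian with 1247 of 1393 bases outside its exons, gave a reading of the same stretch beside the exons. It held 2.01, 1.76 and 0.903 CPM in WT, 0.491, 0.753, 0.440 and 0.332 CPM in Akita, and 0.896, 1.65, 1.21, 1.18 and 2.48 CPM in Akita + NACET, on 4 to 38 reads a library. In WT + NACET it ran from 0.531 to 1.5 CPM. SNORD113 stood 2.86-fold higher in Akita + NACET vs Akita (log2 1.52, SE 0.41), where its host Rian stood at 0.32. That value is a description too, since it starts from the Akita libraries that led to the choice. In Akita + NACET vs WT + NACET, where Rian fell, SNORD113 was 0.60 (SE 0.34, edgeR adjusted p = 0.232). Across the 18 libraries its r with Meg3 was 0.915 and its r with Rian 0.272, both on log2 CPM. The 36 microRNA names from Mir379 to the end of Mirg were too low for a test, with 157 reads in all. They summed to 0.722 CPM (not scaled by TMM) in WT, 0.275 in Akita, 0.772 in Akita + NACET and 0.539 in WT + NACET.

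The level of Meg3 went with the share of reads outside exons. After the group means were subtracted, Pearson's r over the 18 libraries was 0.872 for Meg3 (permutation p = 0.00013, adjusted 0.00065 over 5 members), with Spearman's rho 0.845 (permutation p = 0.00069, adjusted 0.00345). Mirg had r = 0.599 (permutation p = 0.0391, adjusted 0.0978) and rho = 0.439 (permutation p = 0.129). Rian had r = -0.0487 (permutation p = 0.872) and rho = -0.0588 (permutation p = 0.830), and Rtl1 and Dio3 had r of 0.0606 and -0.0163. Without the 2 libraries farthest from the median share, r was 0.857 for Meg3 and 0.705 for Mirg, and 0.194 for Rian. Over all 16183 genes the median r was 0.0163, and 0.352% had an r as high as that of Meg3.

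With that share as a covariate in the edgeR fit, the differences in Akita vs WT were -0.93 for Meg3 (SE 0.18), -1.35 for Mirg (SE 0.35) and -0.92 for Rian (SE 0.24), against -1.73, -1.93 and -0.89 without it. The difference of Meg3 in Akita + NACET vs Akita was 0.67 (SE 0.17) and that of Mirg 0.97 (SE 0.33), both with an edgeR adjusted p of 0.628, and 0 genes of the whole table were called there by edgeR, with 1281 at an unadjusted p under 0.05. In Akita + NACET vs WT + NACET, Meg3 stood at -0.02 (SE 0.14) and Mirg at 0.02 (SE 0.26). Rian stood at -0.61 (SE 0.19) in that comparison and lost its call, with an edgeR adjusted p of 0.118. In Akita + NACET vs Akita Rian stood at 0.35 (SE 0.22), so that Rian and Meg3 were 0.35 and 0.67 there and -0.61 and -0.02 in Akita + NACET vs WT + NACET. The share itself differs between the groups, so that group and share cannot be told apart in full.

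**Figure D5:**
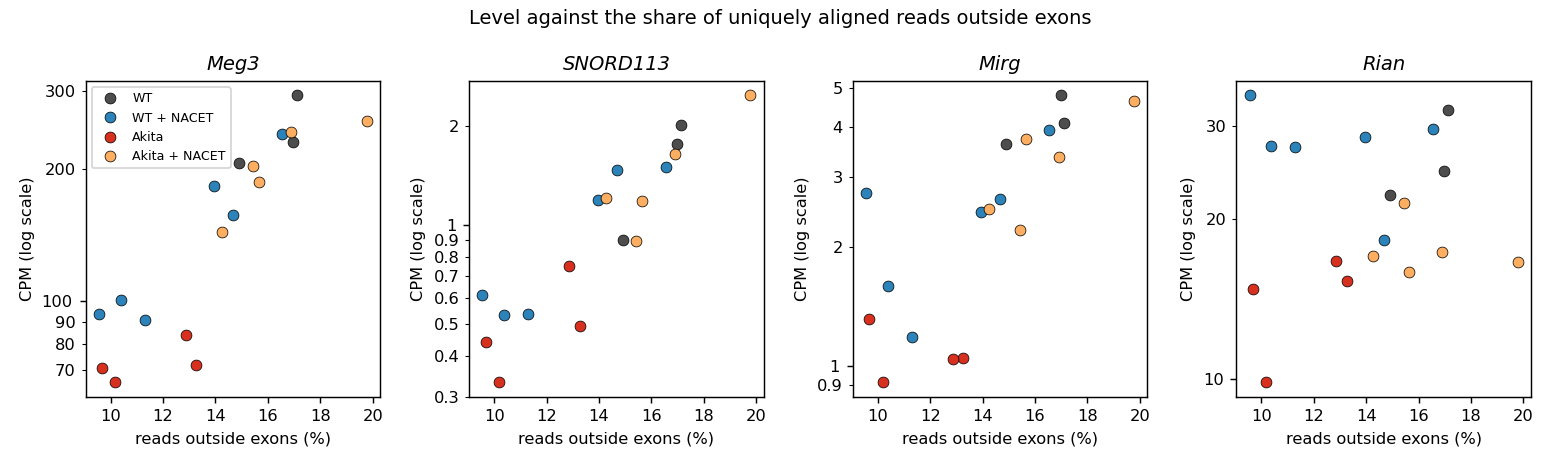
CPM (log axis) of Meg3, SNORD113, Mirg and Rian against the share of uniquely aligned reads outside exons (%), 1 point per library, coloured by group. Within groups, r was 0.872 for Meg3, 0.880 for SNORD113, 0.599 for Mirg and -0.0487 for Rian.

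The genes most like the mean of Meg3, Rian and Mirg over the 18 libraries (Pearson's r of log2 CPM, 14469 genes of at least 1 CPM) were Slitrk2 (0.947), a synaptic adhesion protein, Dzip3 (0.944), the phospholipase Ddhd2 (0.927), and the glutamate receptor genes Gria3 (0.922) and Grm7 (0.920). The genes most opposed were Idh1 (-0.934), cytosolic isocitrate dehydrogenase, Ubl4 (-0.918), Pttg1 (-0.915), Oat (-0.914) and Pla2g7 (-0.908). These genes share libraries and depth with the members, and none of the 5 most like them was kept among the top 5 when group means were subtracted. Between Meg3 and Mirg r was 0.912 over the libraries, but Rian had 0.383 with Meg3 and 0.416 with Mirg. The mean of the 3 is therefore not a profile that all of them share. Taken singly, Meg3 was most like Snhg11 (r = 0.974), another neuronal noncoding RNA, Rian most like Pstpip2 (0.937) and Mirg most like A830039N20Rik (0.937). Ndn, an imprinted neuronal gene of another locus, was the third for Rian (0.909).

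Other imprinted genes did not move as one group. Of 38 tested from 48 listed, in Akita + NACET vs WT + NACET (13.3% of all genes called) 4 were higher and 5 lower by edgeR, with a median log2 difference of -0.0176 beside -0.000146 for all genes. Igf2, a growth factor, was higher (log2 0.71, SE 0.10, 16.6 ± 2.46 CPM against 10.2 ± 0.451), and so was Peg3 (0.53, SE 0.15). Ndn (-0.49, SE 0.12) and Zrsr1 (-0.48, SE 0.11) were lower, on the side of Rian. In Akita + NACET vs Akita, where 9.65% of all genes were called, edgeR called none of the 38 higher and 4 lower. DESeq2 called 1 higher there, among 45 names. Only Peg3 was called by edgeR, and lower, in WT + NACET vs WT, beside 1.48% of all genes.

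Of the long noncoding RNAs that are nuclear or neural, 2 of 12 tested were higher in Akita + NACET vs WT + NACET, beside the same 13.3% of all genes called, and none lower by edgeR or DESeq2. They were Malat1 (log2 0.90, SE 0.25), a nuclear speckle RNA, and A330008L17Rik (0.81, SE 0.26). Higher in Akita + NACET vs Akita, beside 9.65% of all genes called, were 2 of the 12, among them Snhg11 (1.46, SE 0.28), from 128 ± 25.2 to 353 ± 80.9 CPM. The median of this list was 0.211 and 0.338 in these 2 comparisons.

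Of 17 tested genes that flank the locus, 2 were higher and 2 lower in Akita + NACET vs WT + NACET, where 13.3% of all genes were called. Begain, a synaptic protein gene, was higher (log2 0.71, SE 0.18), as was the transcription factor Yy1 (0.36, SE 0.11). Cinp (-0.52, SE 0.12) and Slc25a47 (-0.56, SE 0.16) were lower. Begain also rose in Akita + NACET vs Akita (0.75, SE 0.20, edgeR adjusted p = 0.0310), from 6.53 ± 0.471 to 11 ± 4.04 CPM, and Hsp90aa1, Ppp2r5c and Slc25a29 were lower there.

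Genes on the paths of the members' products are given for Akita + NACET vs WT + NACET, with edgeR and beside the 13.3% of all genes called. At an edgeR unadjusted p under 0.05 were 5038 of all 16183 genes. Of 25 tested Notch pathway genes, Lfng, which modifies Notch receptors, was higher (log2 0.59, SE 0.16) and none was lower, with 5 at an unadjusted p under 0.05, and DESeq2 called 1 higher and 1 lower. Among 20 thyroid hormone genes the receptor gene Thra was higher (0.32, SE 0.10) and the blue cone opsin Opn1sw lower (-0.82, SE 0.23). Among 21 genes that keep imprints or modify chromatin, 4 were higher and none lower, by DESeq2 too: Atrx (0.31, SE 0.09), Ezh1 (0.26, SE 0.07), Tet2 (0.63, SE 0.20) and Trim28 (0.42, SE 0.13), the last a cofactor that protects imprinted methylation. Of 13 tested microRNA processing genes edgeR called 0 in that comparison, with 5 at an unadjusted p under 0.05, and DESeq2 called 1. Drosha stood at 0.06 (SE 0.07), Dgcr8 at 0.16 (SE 0.10) and Dicer1 at 0.27 (SE 0.16).

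The promoter of Meg3 is shown because Meg3 stands first in the row of noncoding hosts and moved together with Mirg. RefSeq (GRCm38.p6) holds a promoter window, 250 bases before to 50 after the start, for 5 of the 6 members. In the first of the 2 Meg3 windows a script found one cAMP response element, TGACGTCA (capitals), 57 bases before the start.
Meg3 promoter: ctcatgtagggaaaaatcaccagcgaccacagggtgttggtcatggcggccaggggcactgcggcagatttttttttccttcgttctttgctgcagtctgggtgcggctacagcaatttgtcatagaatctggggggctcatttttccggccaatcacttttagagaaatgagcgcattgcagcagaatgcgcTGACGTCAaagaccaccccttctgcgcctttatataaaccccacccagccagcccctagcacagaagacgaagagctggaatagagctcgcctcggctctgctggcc

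The element reads the same on both strands and stood in 1.88% of the 27025 promoters, taking the first window of each gene. It was in none of the windows of Rian, Mirg, Dlk1 and Dio3. The antioxidant response element, TGACNNNGC on either strand, which is bound by NRF2, a factor that the study followed under NACET, was in 12.5% of all promoters and in no window of the 5 members. A match says only that the letters are there.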

How the data were processed

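Retinal poly(A) libraries of 18 samples were analysed as raw read counts per gene. Per the labels and the study's methods, the authors aligned the reads to mm9 with TopHat2 2.1.0 and counted them over exons with HTSeq 0.11.2, without regard to strand; the deposited values are these counts, not normalized. Reads ambiguous between genes were left out by the authors. The unnamed entry (0.00544% of counts on average) and 206 ribosomal RNA names (0.977%) were removed. All 4 groups, taken from the sample labels, entered 1 fit of edgeR 4.0.16 in R 4.3.3 (TMM, default filter with minimum count 10 and minimum total 15, robust quasi-likelihood F test, Benjamini-Hochberg adjustment over 16183 genes). SE was derived from the F statistic. The fit was tested on simulated data. Ratios used counts + 0.5 and two-sided exact permutation of group labels, and relations with the share outside exons used 100000 permutations within groups. Likeness used log2 CPM with a prior count of 2.

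The members, gene lists and tests were chosen with earlier results of these data known. The genes named are the 6 members, names between Dlk1 and Dio3 with at least 10 counts where a result turns on them, up to 4 called genes per list (or, with none called, 3 others), and the 5 most and 5 least alike genes; Snhg11, Pstpip2, A830039N20Rik, Dio3os, Tyr, Rpe65, the marker genes and the 3 lower flanking genes were added after their values were seen. Alternatives were DESeq2 1.42.0, its size factors, 2-group fits, other filters, the replicate number as a block, the outside-exon share as a covariate, ribosomal RNA retained and single libraries left out. Annotation and coordinates are gencode vM1 of mm9. Totals of 11590384 to 18073791 counts per library put 1 read near 0.06 to 0.09 CPM, so members with under 10 reads a library carry large counting error, and no pair of replicates agreed within sampling noise.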

Additional observations from a re-analysis of the deposited data

Results flagged for a closer look

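Rian in Akita + NACET replicate 1 stood at 21.4 CPM, where the median of the 5 libraries was 17 CPM. Its gap to the next library was 0.732 of the whole range of the group, above the critical value for 5 samples. Of 18 combinations of member and group of 4 to 6 libraries that were looked at, this was the only one, and chance flags about 1 in 20.

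The fitted effect of NACET in Akita minus that in WT was 2.25 on the log2 scale for Meg3 (SE 0.38) and 2.37 for Mirg (SE 0.41), with both higher with NACET in Akita (log2 1.5 and 1.59) and at -0.75 and -0.78 in WT. This difference contains that of Akita and WT, on which the locus was chosen, so it is a description with no p. With the outside-exon share added to the model it was 0.91 for Meg3 (SE 0.27) and 1.36 for Mirg (SE 0.50).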

How the results depend on the processing

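The call of Rian in Akita + NACET vs WT + NACET held in 26 of 27 alternatives, with log2 differences from -0.74 to -0.57. Of the 27, 18 left out 1 library, some of them WT or Akita libraries, which are not in this comparison. The call was lost with the outside-exon share as a covariate (edgeR adjusted p = 0.118), where Meg3 reversed to -0.02. Members called went with that covariate to 0 in the interaction and in every comparison where a member had been called. At a mean count of at least 50, which left out Mirg, 1 member was called in Akita + NACET vs Akita and 1 in the interaction. DESeq2 with 2 groups called 2, Rian and Dio3, in Akita + NACET vs WT + NACET. With single libraries left out, members called ranged from 0 to 3 in Akita vs WT, 0 to 2 in Akita + NACET vs Akita, 0 to 1 in WT + NACET vs WT and 1 to 2 in Akita + NACET vs WT + NACET. The counts that moved were those without WT replicate 1 or WT replicate 2 (both 0) in the first, without Akita replicate 4 (0) in the second and without WT + NACET replicate 2 in the last pair, where Meg3 was called (1 and 2).

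Genes called over the whole table moved more. In Akita vs WT there were 2065 with DESeq2 over all groups, 148 with edgeR in 2 groups, 507 with the replicate block and 0 with the covariate, and from 0 to 1612 with 1 library left out. In Akita + NACET vs Akita there were 700 with edgeR in 2 groups, 1010 with no filter, 219 with the block and 0 with the covariate, and 1 to 1754 with 1 library left out. WT + NACET vs WT gave 717 and 923 with DESeq2 over all or 2 groups, 61 with the covariate, and 72 to 461. Akita + NACET vs WT + NACET gave 1363 with the block, 194 with the covariate, and 860 to 2710. Akita + NACET vs WT gave 11 and 28 with DESeq2, 3 with edgeR in 2 groups, 2 with no filter, 0 with the block, and 0 to 2. The interaction gave 17 with the covariate, and 1699 to 3524. The cause was not tested. The labels share only a replicate number: same-numbered libraries of different groups had a median correlation of deviations of -0.00138 (range -0.332 to 0.345, 22 pairs). With the replicate block, the call of Rian in Akita + NACET vs WT + NACET stood (edgeR adjusted p = 0.0356). Meg3 and Mirg, at 1.51 and 1.58, stayed past the threshold in Akita + NACET vs Akita, a comparison that the choice favoured.

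With 5 added to each count, the ratio of Mirg to Meg3 reversed to -0.17 in Akita + NACET vs Akita and to 0.05 in WT + NACET vs WT. The 4 called ratios lost their call, at -1.20 and -1.14 for Rian to Meg3 and 1.04 and 0.97 for Mirg to Rian. With 1 library left out, Mirg to Meg3 ranged from -0.19 to 0.06, -0.03 to 0.19 and -0.19 to 0.11 in its 3 comparisons, Rian to Meg3 from -1.37 to -1.04 and -1.25 to -1.03, and Mirg to Rian from 0.92 to 1.31 and 1.04 to 1.39. The r of Rian with the outside-exon share was 0.19 without the 2 farthest libraries. Of the 5 most alike genes, 2 stayed in the top 5 by Spearman's rho and 0 with group means subtracted. With 1 library left out, Dio3 ranged from -0.84 to 1.44 in Akita vs WT, -1.19 to 0.34 in Akita + NACET vs Akita and -0.89 to 0.62 in Akita + NACET vs WT, Rtl1 from -0.28 to 0.12 in Akita + NACET vs WT + NACET, and Rian from -0.04 to 0.24 in WT + NACET vs WT.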
